A study of Mus musculus with 6 samples.

Results

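Integrins, matrix proteins and the proteases that trim them were measured as messenger RNA in sections of mouse blood-forming tissue. The genes were the 80 symbols, of 5050 on the larger Xenium panel, that name a collagen chain, a laminin chain, an Adam or Adamts protease, an Mmp, a Timp or an integrin subunit, with Col1a1 and Col1a2 left out. They were 20 collagens, 9 laminins, 5 Adam, 8 Adamts, 11 Mmp and 2 Timp genes, 16 integrin alpha and 8 integrin beta subunits, and Col4a3bp, a ceramide transfer protein that shares only letters with the collagens. The rule used gene names, not levels.

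The panel was imaged on 2 of the 6 mouse sections, both of 5 µm and from wild-type C57BL/6 mice, with 1 section per condition. The E13.5 section was fetal liver from an embryo at day 13.5, and the other was leg bone marrow of an 89 weeks old mouse. The marrow had been lifted off the bone before it was embedded in paraffin. The 4 remaining sections, E14.5 fetal liver, P8 bone marrow, untreated adult spleen (all wild-type) and spleen after 40 mg/kg phenylhydrazine (PHZ, a drug that destroys red cells), were imaged on a smaller panel. Xenium detects single RNA molecules in place with gene-specific probes and assigns them to segmented cells. With 1 section each, tissue, age, tissue preparation and section cannot be told apart, no p-value could be had, and a ratio of at least 2 stood in for a test. Intervals are 95% and cover counting error only.

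Collagens form fibres, networks and sheets outside cells, and laminins with type IV collagen build the basement membrane under vessels and epithelia. Mmp, Adam and Adamts enzymes cut matrix and cell surface proteins, and Timp proteins inhibit them. Integrins are pairs of an alpha and a beta chain that hold cells to matrix or to each other. In erythroblastic islands, where red cell precursors mature around a macrophage, the pair of Itga4 and Itgb1 on erythroblasts is known to bind Vcam1 on the macrophage.

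The E13.5 section held 5254 cells with 1384754 transcripts and a median of 191 per cell, and the aged marrow 140707 cells with 13044446 transcripts and a median of 62. No cell name occurred in both. Liver and marrow markers matched the labels. Afp, a fetal liver protein, stood at 16110 CPM (transcripts of the gene per 1000000 transcripts of all panel genes) in the E13.5 section and 7.90 CPM in the marrow, while Ibsp, a bone matrix protein, stood at 0.722 and 304 CPM. The most abundant negative control reached 2 counts in the E13.5 section and 18 in the marrow.

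Together the 80 genes took nearly the same share of transcripts in both tissues, 1.28% (1.26 to 1.30%) in E13.5 fetal liver and 1.25% (1.24 to 1.25%) in aged marrow, but the make-up of that share differed. Collagens and laminins took a larger part in the fetal liver, and integrin alpha and beta chains in the marrow. In the E13.5 section 69 of 80 genes exceeded the most abundant negative control, beside 82.9% of all panel genes, and in the marrow 80 of 80 did, beside 97.8%. Against the highest genomic DNA control, at 5 counts in the E13.5 section and 90 in the marrow, 66 and 59 of the 80 did. The share of all panel genes above that control was not counted, so neither number can be read as particular to these genes. In the E13.5 section 29 genes had fewer than 20 counts, Adam18 among them with none, and 4 genes, Itgb1, Adam10, Itga4 and Col18a1, supplied 43.0% of the member counts.

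Between the sections, 33 of the 80 genes were at least 2-fold higher in the E13.5 fetal liver, a share above the 17.7% of all panel genes, and 23 were at least 2-fold higher in the aged marrow, close to the 30.2% of all genes. The median log2 ratio of E13.5 over marrow CPM was 0.35 for the 80 genes and -0.20 for 4966 panel genes with at least 20 counts. Counted per cell in place of per transcript, 51 genes were higher in the E13.5 section and 13 in the marrow, where a cell held fewer transcripts at the median. The share of all panel genes was not counted per cell. These counts and the per-cell calls below can therefore not be read as particular to the 80 genes.

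**Figure D1:**
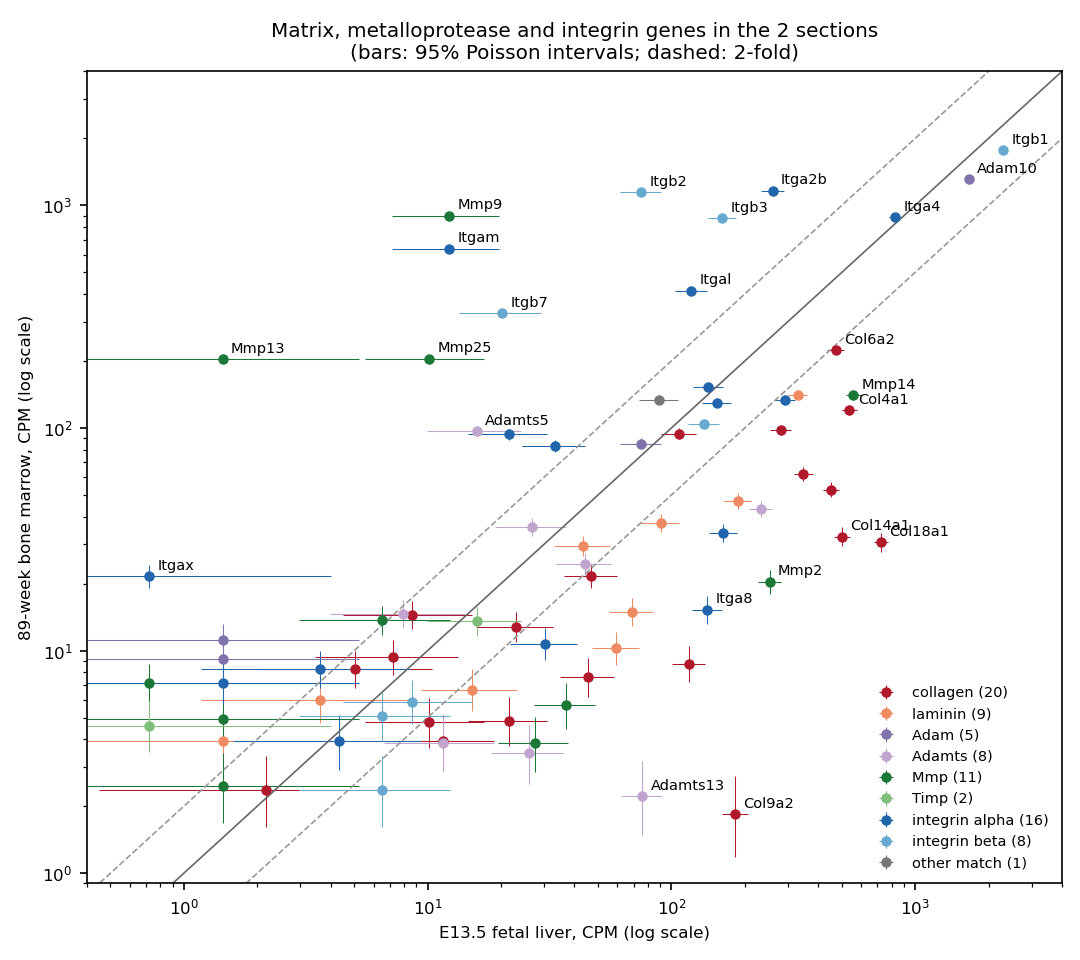
CPM of the 79 members with a count in both sections, E13.5 fetal liver on the x axis and aged marrow on the y axis, both log scales, with 95% Poisson intervals as bars and 2-fold as dashed lines, colored by gene group (Adam18, with 0 counts at E13.5, cannot be drawn). Collagens lie mostly below the line of equal level and Mmp9, Mmp13, Itgam and Itgb2 far above it.

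Collagens made the largest shift toward the fetal liver. They took 0.390% of its transcripts against 0.0815% in the marrow, a ratio of 4.79 (4.63 to 4.95), and 14 of the 20 were at least 2-fold higher there while 0 were in the marrow. Col9a2, a chain of a collagen that decorates cartilage fibrils, gave 253 counts at E13.5 and 24 in the far deeper marrow section, or 183 against 1.84 CPM, a ratio of 99.3 (65.2 to 158). Its marrow counts lay little above the 18 of the highest negative control there and below the 90 of the highest genomic control. Col18a1, the basement membrane collagen that releases endostatin, stood at 724 against 30.7 CPM, 23.6-fold apart (21.0 to 26.6). Col14a1, a fibril-associated collagen, was 15.4-fold higher in the fetal liver and Col5a1, which sets fibril width, 8.53-fold. Among the chains of type VI collagen, a beaded filament around cells, Col6a3 was 5.60-fold and Col6a2 2.11-fold higher in the fetal liver, while Col6a1 stood at 107 and 94.1 CPM.

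The basement membrane genes followed the collagens. Col4a1 and Col4a2, which code for the chains of the common type IV collagen, were 4.44-fold and 2.86-fold higher in the fetal liver, and 6 of the 9 laminins were at least 2-fold higher there against 1 in the marrow. The latter, Lamb3, gave 2 counts at E13.5, no more than the highest negative control, and 51 in the marrow, below the highest genomic control. Its ratio was 2.71 (0.712 to 23.0), and per cell it was no longer 2-fold higher in the marrow. Lamc1, the gamma chain of most laminins, stood at 329 against 141 CPM and Lamb2 at 187 against 46.9 CPM. Lama4, the alpha chain of vessel walls, was below 2-fold in CPM, with 43.3 and 29.5, and above it per cell. The RefSeq windows of Col4a1 and Col4a2, from 250 bases before the start to 50 after (build GRCm38.p6, chromosome 8), lie on opposite strands and share 78 bases.

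Proteases split by enzyme. Of the Mmp genes, 4 were at least 2-fold higher in the fetal liver, Mmp2, Mmp14, Mmp15 and Mmp16, and 6 in the marrow, beside 17.7% and 30.2% of all genes. Counted per cell, Mmp7 and Mmp28 were no longer 2-fold higher in the marrow. Mmp2, a gelatinase, gave 253 against 20.4 CPM and Mmp14, the membrane enzyme that activates it, 557 against 140 CPM. Mmp13, a collagenase of bone and cartilage, gave 2 counts in the E13.5 section and 2663 in the marrow, 1.44 against 204 CPM and 141-fold (39.1 to 1168) higher in the marrow. The 2 counts equal the most abundant negative control at E13.5, so that level cannot be told from background. Mmp9, the gelatinase stored by neutrophils, gave 17 and 11713 counts (73.1-fold, 45.7 to 126), and Mmp25, a membrane enzyme of neutrophils, 14 and 2672 counts (20.3-fold). Mpo, the granule enzyme of the neutrophil line, moved the same way, from 1040 CPM at E13.5 to 11240 CPM in the marrow, and its part in these ratios was not tested. A sum over a section does not tell more producing cells from more RNA per cell.

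Among the other proteases, Adamts13, which cuts von Willebrand factor, was 34.1-fold (22.4 to 53.4) higher in the fetal liver, with 105 and 29 counts, the latter also below the highest genomic control, and Adamts1 was 5.37-fold higher there. Adamts5, an aggrecanase, ran the other way with 15.9 against 97.0 CPM, 6.10-fold higher in the marrow. Adam10, a sheddase of many surface proteins, was below 2-fold in CPM at 1654 and 1312, as was Adam17, which releases tumor necrosis factor, at 75.1 and 85.0 CPM, though counted per cell both were at least 2-fold higher in the fetal liver. Of 5 Adam genes, Adam18, Adam28 and Adamdec1 were called higher in the marrow from no more than 2 counts each at E13.5. Adam18 gave 0 and 83 counts. Timp1 stood at 15.9 and 13.6 CPM and was, per cell, at least 2-fold higher in the fetal liver, and Timp4 gave 1 and 60 counts.

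Integrin alpha chains took 1.72-fold and beta chains 1.56-fold more of the transcripts in the marrow, whereas per cell both sums were higher in the E13.5 section. The single chains did not all share that direction. The median log2 ratio of E13.5 over marrow CPM was -0.65 for the alpha and 0.37 for the beta chains. Itgb1, Itgb4, Itgb5, Itgb6 and Itgb8 each had the higher CPM at E13.5, while Itgb2, Itgb3 and Itgb7 had more in the marrow. Itgb4, Itgb6 and Itgb8 gave only 9, 9 and 12 counts at E13.5. The ratio intervals of Itgb4 (0.563 to 2.59) and Itgb8 (0.727 to 2.71) spanned equal levels. In the marrow Itgb4, Itgb6 and Itgb8 (66, 31 and 77 counts) lay below the highest genomic control of 90. Itgam, the alpha chain of the complement receptor of neutrophils and macrophages, gave 17 counts at E13.5 and 8342 in the marrow, 52.1-fold (32.5 to 89.5) higher in CPM. Its partner Itgb2 gave 104 and 15002 counts, 15.3-fold higher, and Itgal, the alpha chain of lymphocyte adhesion, was 3.43-fold higher. Itgb7, the gut-homing beta chain, was 16.2-fold higher with 28 and 4284 counts. The fibrinogen receptor of platelets, Itga2b with Itgb3, was 4.48-fold and 5.43-fold higher in the marrow, and Itga6, a laminin receptor, 4.32-fold. Counted per cell, Itgal, Itga2b, Itgb3 and Itga6 were no longer 2-fold higher in the marrow, nor were Itga2, Itga11 and Itgae.

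Itga4 and Itgb1 were below 2-fold between the tissues in CPM. Itga4 stood at 825 CPM (778 to 875) at E13.5 and 884 CPM (868 to 900) in the marrow, and Itgb1, the chain shared by most matrix receptors, at 2295 and 1767 CPM. Itgav and Itgb5, which form a vitronectin receptor, were also below 2-fold, at 1.18-fold and 1.30-fold higher in the fetal liver. Counted per cell, Itga4, Itgb1, Itgav and Itgb5 were each at least 2-fold higher there. Itga8, which pairs with Itgb1 and binds nephronectin, was 9.18-fold, Itga9 4.83-fold and Itga5, the fibronectin receptor chain, 2.17-fold higher in the fetal liver.

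Mmp13 and Itga2b, a matrix protease and an integrin that were both at least 2-fold higher in the marrow in CPM (per cell only Mmp13 was) and, as given further on, lay to a large part in few cells there, are shown with the RefSeq sequence of the 250 bases before their start (GRCm38.p6). Windows were found for 55 of the 80 genes. Capitals mark every match, on either strand, to 4 short motifs. The AP-1 letters TGACTCA occurred in 4.46% of 32851 windows of the same length. The RUNX letters ACCACA occurred in 14.1%, the GATA letters AGATAA in 9.99% and the ETS letters AGGAAG in 29.5%.

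Mmp13, chr9:7272264-7272513, plus strand: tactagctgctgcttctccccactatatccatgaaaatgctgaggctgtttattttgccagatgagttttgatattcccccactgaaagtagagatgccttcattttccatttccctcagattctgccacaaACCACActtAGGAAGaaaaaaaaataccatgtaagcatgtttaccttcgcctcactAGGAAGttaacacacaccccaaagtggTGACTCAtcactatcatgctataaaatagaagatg

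Itga2b, chr11:102469884-102470133, minus strand: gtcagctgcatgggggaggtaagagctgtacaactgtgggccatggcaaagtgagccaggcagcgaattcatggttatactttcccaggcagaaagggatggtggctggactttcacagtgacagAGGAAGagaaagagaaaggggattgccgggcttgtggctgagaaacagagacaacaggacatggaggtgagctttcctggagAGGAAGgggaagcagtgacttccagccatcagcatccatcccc

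The Mmp13 stretch held the AP-1 letters 35 bases, the ETS letters 62 and 109 bases and the RUNX letters 118 bases before the start. The Itga2b stretch held the ETS letters 43 and 125 bases before the start, and the letters of the other motifs did not occur in this window. A match describes the letters and is no measure of binding.

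The ligands shifted too. Of 47 ligand, matrix and adhesion partner genes on the panel, from a list of 72, 22 were at least 2-fold higher in the fetal liver and 9 in the marrow, beside the 17.7% and 30.2% above. Fn1, fibronectin, stood at 1890 against 399 CPM, 4.73-fold higher in the fetal liver. Vtn, vitronectin, and the fibrinogen chains Fga, Fgb and Fgg each had their highest level in hepatocyte-like cells at E13.5. Vcam1, the ligand of Itga4 with Itgb1, stood at 235 and 446 CPM, 1.90-fold higher in the marrow. It gave 326 counts in 5254 cells at E13.5 and 5823 counts in 140707 marrow cells, so per cell it was higher in the fetal liver. The partner calls above rest on CPM. The partner genes with the most counts in the marrow were Cd47, an integrin-associated protein, Thbs1, thrombospondin, and Fermt3, Tln1 and Vcl, which link integrins to the cytoskeleton.

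To find the producing cells, each section was clustered on its variable genes with the 80 genes left out, and clusters were named from marker lists. A gene was said to be led by a class when its CPM was highest there and at least 2-fold that of the rest of the section. At E13.5, 51 of the 80 genes had the 20 counts needed, and 31 of them (60.8%) were led by the 934 stromal-like cells, beside 17.6% of all genes tested. Endothelial-like cells led 7, beside 6.33%, C1q macrophage-like cells 3, beside 5.66%, megakaryocyte-like cells 3, beside 3.32%, and neutrophil or granulocyte-like cells 1, beside 6.36%. Hepatocyte-like and erythroid-like cells led 0, beside 5.37% and 3.42%. The erythroid-like cluster held only 366 cells, with a median of 57.5 transcripts, and a cluster of 1004 cells with Sox6 and Pklr among its leading genes kept no name and could lead no gene. At a Leiden resolution of 0.2 stromal and endothelial markers led 1 cluster, named endothelial-like, which led 37 genes, all 31 of the stromal-led genes among them. The share of all genes that this larger cluster led was not counted.

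Many collagens had most of their counts in the stromal-like cells of the fetal liver. Col9a2 had 88.1% of its counts there, at 26.9-fold (18.3 to 40.9) the level of other cells. Col6a3 had 85.9% (22.1-fold), Col6a2 85.3% (21.0-fold), Mmp2 78.9% (13.5-fold), Col5a1 73.9% (10.3-fold) and Col14a1 72.8% (9.68-fold). All 63 counts of Col26a1 fell there. Lamb1 (16.1-fold) and Itga8 (8.50-fold) had the same leading class, as had Adamts13 (9.06-fold) with 71.4% of its counts. Col1a1 and Col1a2, the type I collagen chains kept out of the set, were among the 10 leading genes of that cluster.

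Other classes led genes of other kinds. Type IV collagen was shared: Col4a1 stood at 4.10-fold in endothelial-like cells, with 33.6% of its counts, and at 3.37-fold in stromal-like cells, with 48.2%. Col18a1, in contrast, had no leading class in the clusters, with 352 of its 1003 counts in hepatocyte-like cells and 301 in stromal-like cells, each at 1.55-fold. Itgb3 had 78.5% (29.3-fold) and Itga2b 61.7% (12.9-fold) of their counts in the megakaryocyte-like cluster, whose leading genes also held Mpo and Prtn3 of the granulocyte line. Itgal had 63.5% of its counts in C1q macrophage-like cells, 13.7-fold (9.91 to 19.1) above the rest.

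With E13.5 cells classed by their own marker counts, stromal-like cells led 27 of 51 genes, beside 16.8% of all genes. Of these, 26 were the same as in the clusters and the other was Col18a1. Endothelial-like cells then led 11, beside 12.3%, with Itga2b now among them. A class needed 50 cells, and no megakaryocyte-like class was among those kept. The class that led Itga2b in the clusters could therefore lead no gene here. C1q macrophage-like cells led 6, beside 10%, Itgav, Itga9 and Itgb2 joining Adam17, Itgal and Itgb5. Erythroid progenitor-like cells led Adamts3, beside 1.98%, and neutrophil or granulocyte-like cells Itgb7, beside 9.18%.

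**Figure D2:**
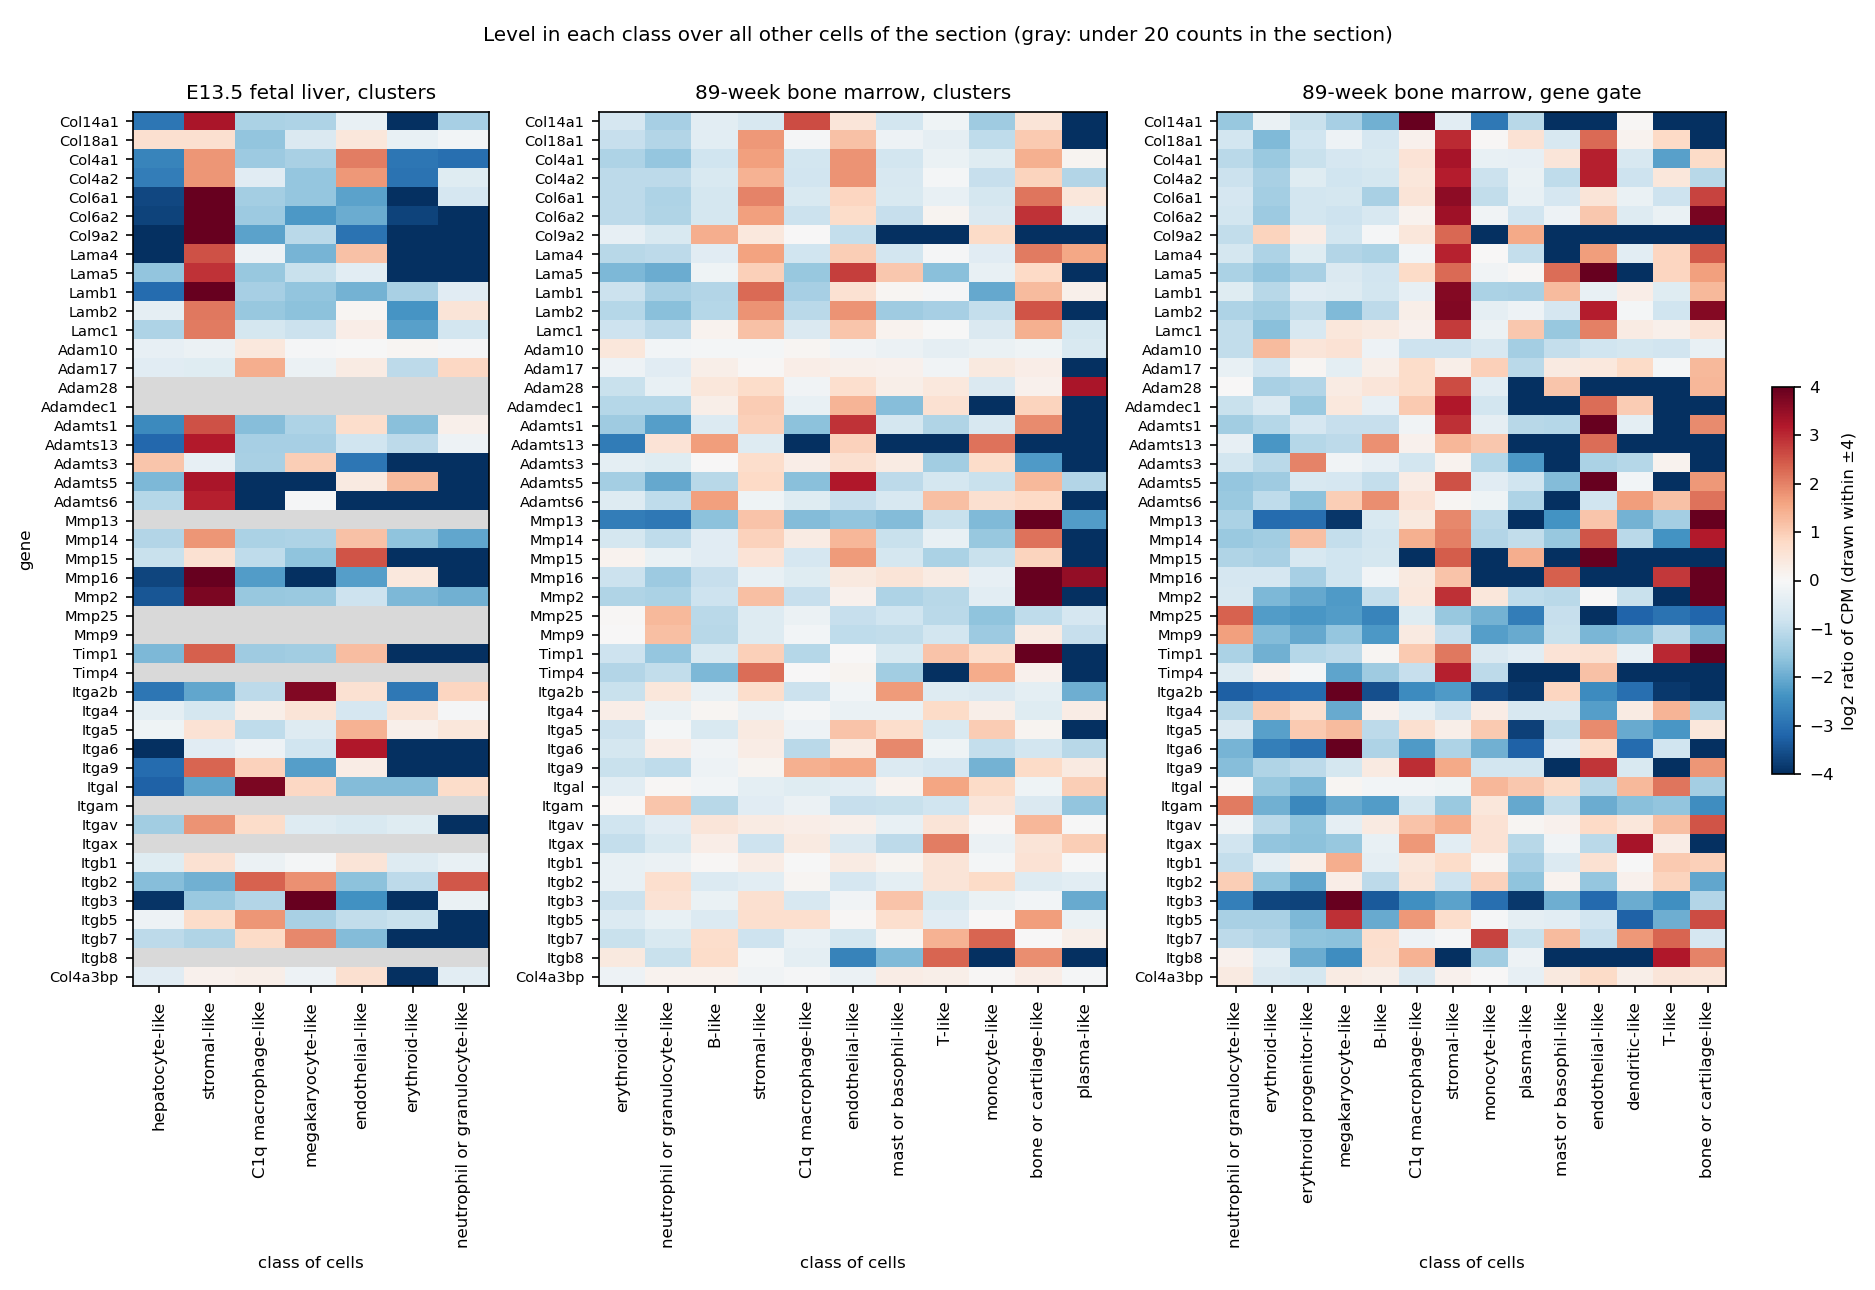
Log2 ratio of a gene's CPM in a cell class to that in all other cells of the section, drawn within ±4, for E13.5 clusters, 89-week clusters and 89-week cells classed by their own marker counts; gray marks genes under 20 counts. At E13.5 most of the collagen, laminin and Adamts genes drawn, though not Col18a1 or Adamts3, have high values in stromal-like cells. In the marrow many of these genes have high values in stromal-like, bone or cartilage-like and endothelial-like cells. Others are led elsewhere, Col14a1 by C1q macrophage-like cells and, in the clusters, Adamts6 by B-like and Adamts13 by monocyte-like cells. Itga2b, Itgb3 and Itga6 have high values in megakaryocyte-like cells by marker counts. The NK-like (138 cells) and osteoclast-like (57 cells) marrow classes by marker counts are not drawn.

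In the aged marrow all 80 genes had at least 20 counts, but 59 exceeded the highest genomic control, at 90 counts. Genes below that control count among those led here and in the next paragraph. They include Col10a1 (31 counts), Itgb6 (31), Mmp16 (50) and Adam18 (83). The 1265 bone or cartilage-like cells, 0.899% of the section and marked by Bglap, Ibsp and Alpl, led 24 genes, beside 10.8% of all genes tested. No such cluster was named at a Leiden resolution of 0.2 or when the 80 genes were clustered too, so these 24 genes and the cluster values below rest on 1 clustering. The stromal-like count that follows rose to 26 at that resolution and had no class with the 80 genes included, and the endothelial-like class had no value at 0.2. The share of all genes to set beside the 26 was not counted. Endothelial-like cells led 11, beside 4.63%, T-like cells 8, beside 8.51%, stromal-like cells 4, beside 2.78%, and neutrophil or granulocyte-like cells 3, Mmp9, Mmp25 and Itgam, beside 1.38%. Monocyte-like cells led 4, beside 5.59%, plasma-like cells 4, beside 6.26%, mast or basophil-like cells 4, beside 3.07%, B-like cells 2, beside 4.43%, C1q macrophage-like cells 2, Col14a1 and Mmp12, beside 2.76%, and erythroid-like cells only Col10a1, beside 1.42%. Stromal-like marrow cells, marked by Lepr and Cxcl12, held a larger part of the counts than the bone or cartilage-like cells for several genes whose level was highest in the latter, as for Col6a2 with 24.7% against 10.1%. With cells classed by their own marker counts, bone or cartilage-like cells led 16 genes in the marrow, beside 7.72%, endothelial-like cells 15, beside 9.93%, and stromal-like cells 12, beside 5.89%.

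The same classing gave 57 osteoclast-like cells, bone-resorbing macrophages, which led 10 genes, beside 7.38%. Mmp9 stood in them at 19.3-fold with 153 of its counts, while 55.2% of its counts lay in neutrophil or granulocyte-like cells at 3.09-fold. The neutrophil or granulocyte-like cells led Itgam (62.5% of its counts) and Mmp25 (67.2%), beside 1.44%. NK-like cells led 7 genes, beside 8.45%, T-like cells 4, beside 7.96%, monocyte-like cells Itga8 and Itgb7, beside 2.48%, mast or basophil-like cells Col10a1 and Col7a1, beside 2.74%, and plasma-like cells Adam18 and Itgb6, beside 2.40%. Erythroid-like cells led Adam10 alone, with 5140 of its 17110 counts at 2.41-fold, beside 3.54%.

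Of the 80 genes, Mmp13 had the highest ratio of a marrow cluster class to all other cells. The bone or cartilage-like cells held 51.5% of its counts at 7049 CPM, 70.1-fold (64.9 to 75.6) the level of all other cells. Classed by their own marker counts, 244 bone or cartilage-like cells held 38.5% of its counts. Col13a1, a membrane collagen, followed at 44.7-fold with 46 of its 114 counts, then Mmp2 at 25.5-fold, Timp1 at 20.6-fold and Col12a1, a tendon and bone collagen, at 17.9-fold. In the endothelial-like cells Adamts5 stood at 9.17-fold, with 43.6% of its counts, Adamts1 at 7.44-fold, Lama5 at 6.78-fold and Col4a1 at 3.51-fold.

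Col14a1 had different leading cells in the 2 tissues. At E13.5 its level was highest in stromal-like cells, 9.68-fold over the rest. In the marrow the C1q macrophage-like cells led it with 35.4% of its 424 counts at 6.07-fold (4.94 to 7.44), and by their own marker counts such cells led it alone at 27.4-fold (22.6 to 33.4), beside 3.78%. Between the E13.5 gates of C1q-positive and erythroid cells given further on it stood at 476 CPM in the former and 399 CPM in the latter.

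A part of the platelet integrin counts of the marrow lay in few, large cells. The clusters yielded no megakaryocyte-like class, and a mast or basophil-like cluster with the platelet gene Ppbp among its leading genes led Itga2b, Itgb3, Itga6 and Itga2 while holding 12.7% of the Itga2b counts. The classes from each cell's own marker counts gave 4655 megakaryocyte-like cells, which held 83.3% of Itga2b at 68.4-fold (65.5 to 71.4), 84.6% of Itgb3 at 75.0-fold (71.3 to 79.0), 71.4% of Itga6 and 72.4% of Itga2, the collagen receptor chain. With Itgb1 at 2.73-fold these were the 5 genes that class led, beside 4.49%. In the 330 cells with at least 10 Itga2b counts, 0.235% of the section, lay 33.9% of all Itga2b and 28.7% of all Itgb3 counts. Their median area was 124 µm² against 28.8 µm² for all cells. They were picked by their Itga2b counts and held a median of 534.5 transcripts, against 62 over the section.

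By position, Mmp13 outlined the marrow pieces. Cells within 40 µm of the tissue edge, 16.8% of the section, held 2062 of its 2663 counts (77.4%), or 852 CPM against 56.6 CPM farther inside, a ratio of 15.1 (13.7 to 16.5). The band was laid after the positions had been seen, from 20 µm squares that held a cell, and it includes the rims of large gaps. Bglap, an osteoblast gene, had 80.1% of its counts in the same band and Ibsp 40.6%. Ctsk, an osteoclast protease, had 54.6% there, while Acp5, another osteoclast gene, had 21.1%. Itga2b had 17.5% there, close to the share of cells, and Lepr 18.1%.

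Of the 80 genes in the marrow, 11 were at least 2-fold higher near the edge, beside 2.44% of all genes. Col13a1 (4.55-fold), Col12a1 (3.40-fold), Mmp2 (3.19-fold) and Timp1 (2.87-fold) followed Mmp13 among genes with at least 100 counts, and the others were Col15a1, Col24a1, Itga11, Lama1, Lamb3 and Mmp16. Of these, Col24a1 (51 counts), Lamb3 (51) and Mmp16 (50) lay below the highest genomic control of 90. Only Col10a1 was at least 2-fold lower near the edge, from 31 counts, also below that control, beside 2.19% of all genes. Itgb1, Itgb3, Mmp9 and Itgal lay between 0.997 and 1.05.

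**Figure D3:**
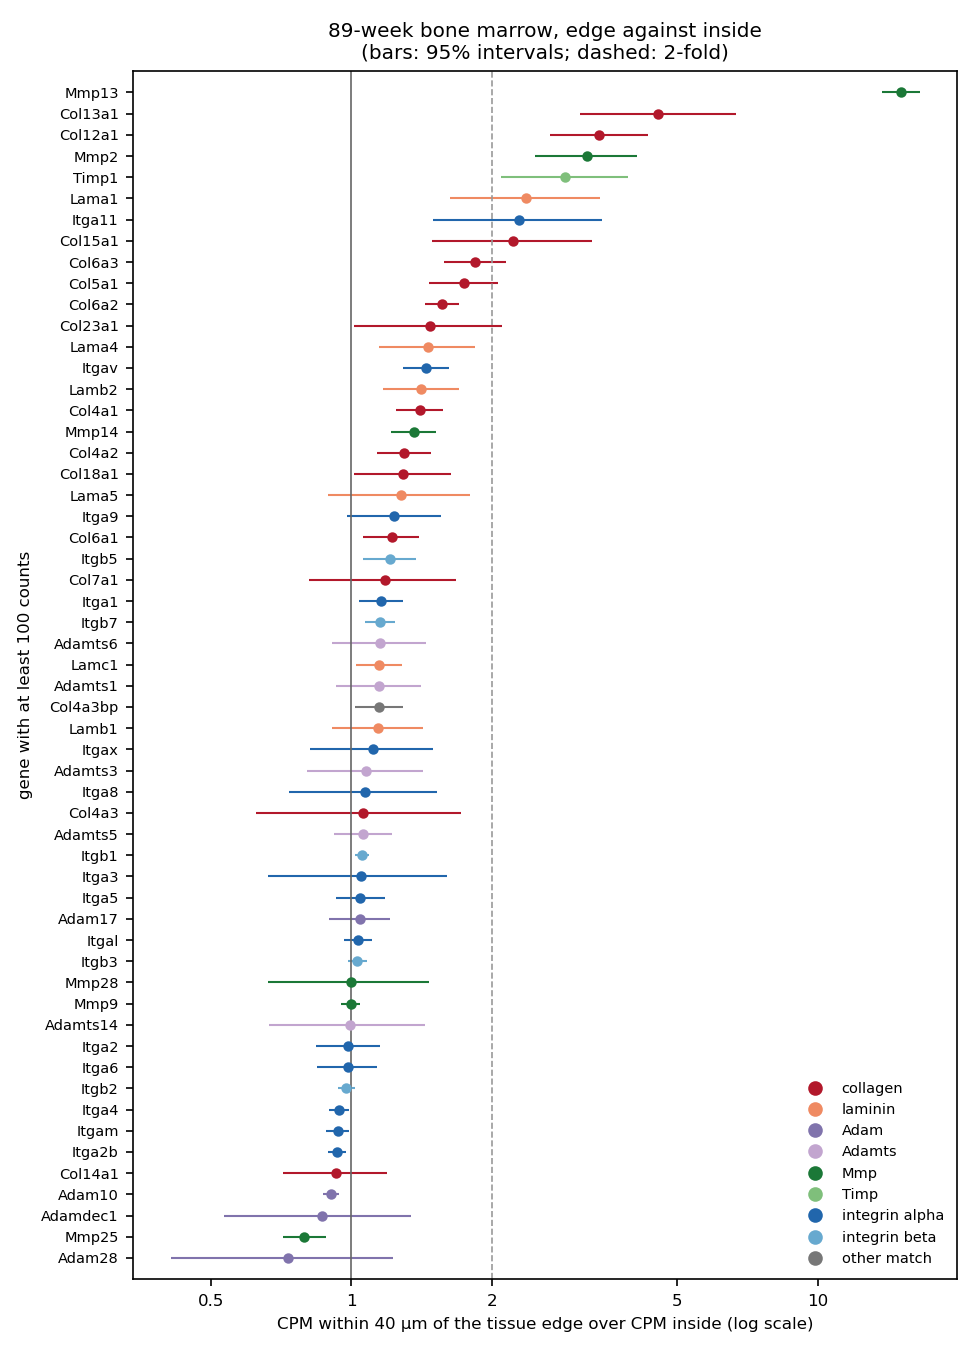
Ratio of CPM within 40 µm of the tissue edge to CPM inside, log scale, for the members with at least 100 counts in the aged marrow; bars are 95% counting intervals and the dashed line marks 2-fold. Mmp13 lies apart at 15.1, followed by Col13a1, Col12a1, Mmp2 and Timp1.

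In the smaller E13.5 section 41.6% of the cells lay within 40 µm of an edge, with a median of 237.5 transcripts against 165.5 inside, and 21 of the 51 genes tested were at least 2-fold higher there, beside 9.78% of all genes, against 0 lower, beside 0.671%. Collagens were 9 of the 21. Col26a1 had 59 of its 63 counts in the band, Col9a2 205 of 253 (3.13 to 6.02-fold) and Col6a3 385 of 482 (4.00-fold), while Lama5 stood at 4.31-fold. C1qb went the other way with 612 CPM at the edge and 957 CPM inside.

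**Figure D4:**
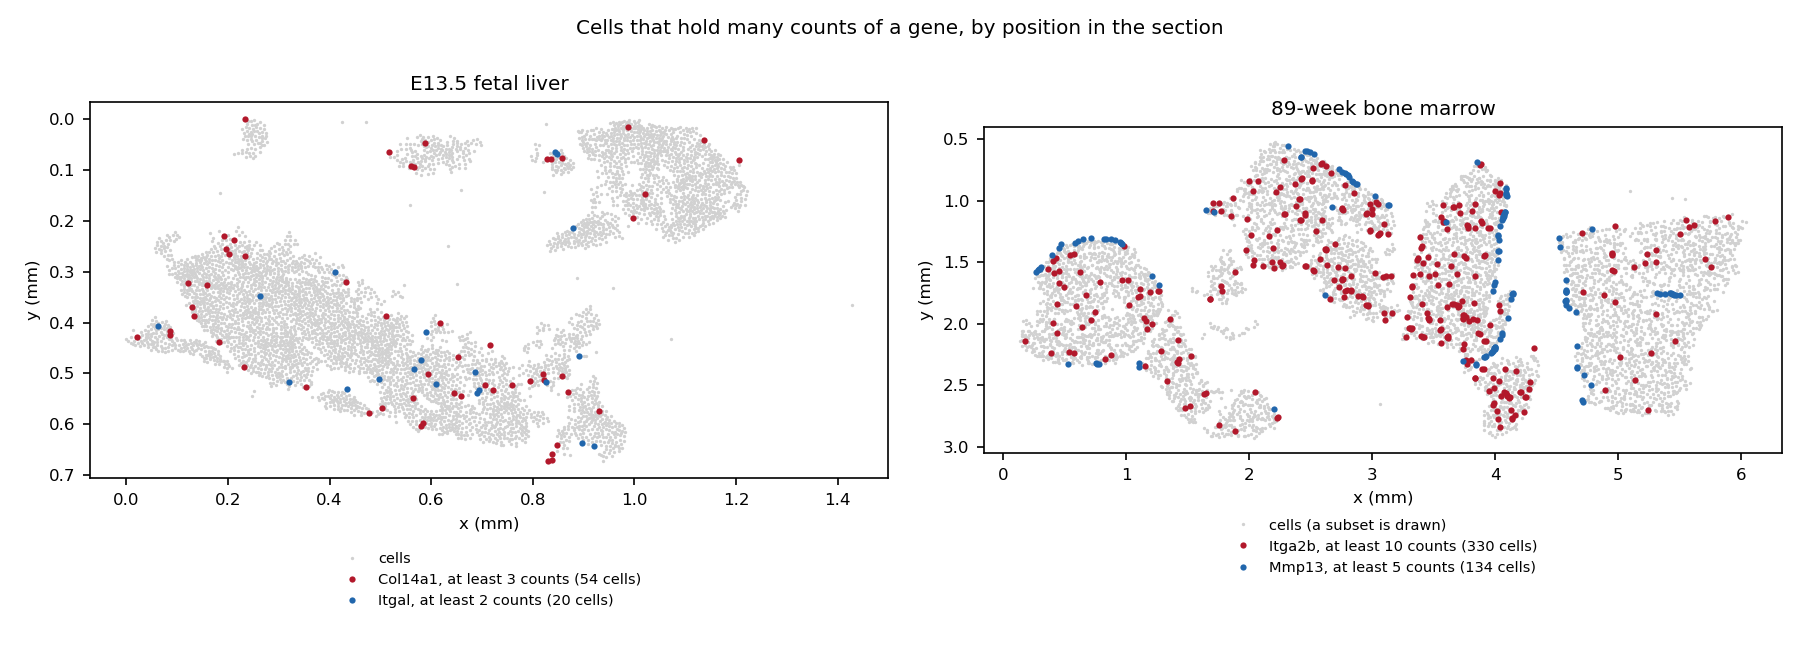
Positions of cells with many counts of a gene, x and y in mm at a different scale per section; gray dots are cells, a subset of them in the marrow. In the marrow the 134 cells with at least 5 Mmp13 counts lie mostly along the rims while the 330 cells with at least 10 Itga2b counts are scattered through the pieces, and at E13.5 the Col14a1 and Itgal cells are few and spread.

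Integrins were then set side by side in C1q-positive cells, those whose C1qa, C1qb and C1qc counts summed to 3 or more, and in erythroid cells, taken from the rest with at least 3 counts summed over 6 erythroid genes, Slc4a1, Klf1 and Epor among them. The gates held 301 and 2853 cells at E13.5 and 4077 and 20168 in the marrow, with median transcripts of 252 and 207, and of 134 and 123. The erythroid gate took in 54.3% of all cells at E13.5 and 14.3% in the marrow. Of the C1q-positive cells, 183 at E13.5 and 894 in the marrow also held 3 counts of the erythroid genes. Integrins made up 0.683% of the transcripts of C1q-positive cells and 0.432% of those of erythroid cells at E13.5, and 0.772% and 0.577% in the marrow. In cells of neither gate they made up 0.549% at E13.5 and 0.887% in the marrow, the latter above both gates. As a yardstick, Adgre1, a macrophage gene outside the gates, was 22.5-fold higher in C1q-positive cells at E13.5 and 9.63-fold in the marrow, and Alas2, of heme synthesis, 1.43-fold and 2.91-fold higher in erythroid cells. Markers of other cell types differed too. Afp, of hepatocytes, stood at 14250 CPM in the erythroid and 6835 CPM in the C1q-positive gate at E13.5, against 16110 CPM over that section. Cdh5, of endothelium, was 3.80-fold higher in C1q-positive cells there. Mpo, of the neutrophil line, was 4.34-fold higher in erythroid cells at E13.5. In the marrow, C1q-positive cells were higher in Cdh5 (2.82-fold), Pf4 of platelets (2.70-fold) and Mpo (2.28-fold). Ppbp, also of platelets, stood there at 4878 CPM in C1q-positive and 4776 CPM in erythroid cells. The part of such transcripts in the values that follow was not tested.

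In the fetal liver 13 of the 24 integrins had at least 20 counts over both gates, and 6 were at least 2-fold higher in C1q-positive cells, beside 13.5% of all genes. Itgal led with 849 against 49.4 CPM, 17.2-fold (11.7 to 25.6), followed by its partner Itgb2 at 7.79-fold (4.64 to 13.1). Itgb5 was 5.83-fold, Itga9 3.86-fold, Itgav 3.40-fold and Itga8 2.60-fold higher. Itga2 alone was called higher in erythroid cells, from 1 and 19 counts, beside 7.11% of all genes.

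In the aged marrow 18 integrins had the counts and 9 were at least 2-fold higher in C1q-positive cells, a share to be read beside 29.6% of all genes, with 0 higher in erythroid cells, beside 7.69%. Itga9 stood at 135 against 12.6 CPM (10.7-fold, 7.35 to 15.9) and Itgax, a dendritic cell and macrophage chain, at 43.0 against 5.21 CPM (8.25-fold). Itgb5 (4.44-fold) and Itgav (4.37-fold) were raised to a like degree, and Itgb2 stood at 1348 against 435 CPM, with Itgam 2.72-fold and Itgal 2.07-fold higher. In C1q-positive cells Itgam (501 CPM) and Itgal (313 CPM) lay below their levels over the whole section, 640 and 414 CPM. Itgb2 lay above its section level of 1150 CPM. Itga9, Itgav, Itgb5, Itgb2 and Itgal passed 2-fold toward C1q-positive cells in both sections. With C1q macrophage-like and erythroid-like clusters in place of the gates, 4 passed in the marrow, Itga9, Itgb5, Itgax and Itga3, and Itgal, Itgav, Itgb2 and Itgam did not. The share of all genes that passed between these clusters was not counted.

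Itga4 had the higher level in the erythroid gate. In the marrow it stood at 1419 CPM in erythroid and 711 CPM in C1q-positive cells, a ratio just under 2-fold (1.82 to 2.20) that passed 2-fold with a minimum of 10 C1q counts or of 10 erythroid counts, and at E13.5 at 1010 and 849 CPM, a ratio of 1.19 whose interval began at 0.958. Erythroid cells with no C1q count and more than 20 µm from a C1q-positive cell gave 1410 CPM in the marrow and 1015 CPM at E13.5. Itgb1, its partner, was slightly higher in C1q-positive cells in both tissues, at 2083 against 1769 CPM in the marrow and 2592 against 2105 CPM at E13.5. Vcam1, the ligand, was higher in C1q-positive cells by 6.14-fold at E13.5 and 6.29-fold in the marrow.

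The platelet integrins were below 2-fold between the gates, but this changed with the gate. Itga2b stood at 270 CPM in C1q-positive and 216 CPM in erythroid cells at E13.5 and at 800 and 738 CPM in the marrow. In E13.5 erythroid cells away from C1q-positive cells it stood at 91.3 CPM, which raised the ratio past 2-fold toward C1q-positive cells, and Itgb3 at 59.9 CPM, against 122 CPM over all erythroid cells. A minimum of 10 C1q counts turned Itga2b at E13.5 past 2-fold toward erythroid cells, and a minimum of 10 erythroid counts past 2-fold toward C1q-positive cells. In the marrow the latter minimum took both Itga2b and Itgb3 past 2-fold toward C1q-positive cells. Itga5 stood at 168 CPM in C1q-positive and 209 CPM in erythroid cells at E13.5, and at 172 and 106 CPM in the marrow.

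**Figure D5:**
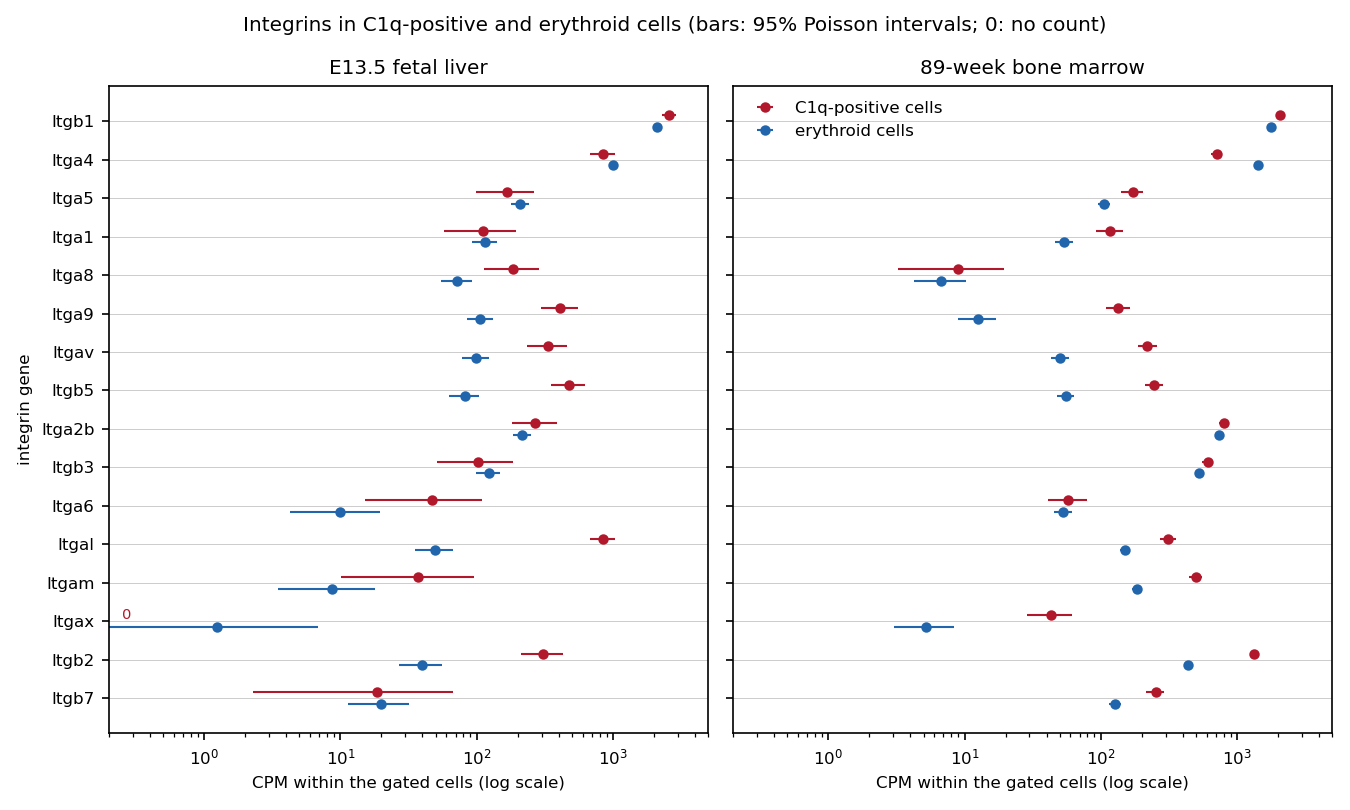
CPM of integrin genes, log scale, in C1q-positive (red) and erythroid (blue) cells of each section; bars are 95% Poisson intervals and 0 marks no count. Itgal, Itgb2, Itgb5, Itga9 and Itgav lie higher in C1q-positive cells in both sections, and Itga4 higher in erythroid cells of the marrow.

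Over all 80 genes, the gates differed mostly toward C1q-positive cells in the marrow, with 32 of 55 genes tested at least 2-fold higher there, beside 29.6% of all genes, and 1 in erythroid cells, beside 7.69%. That gene was Adam10, at 2367 CPM in erythroid and 1099 CPM in C1q-positive cells (2.15-fold, 2.00 to 2.33), while at E13.5 it stood at 1919 and 1828 CPM. Col14a1 (354 against 17.5 CPM, 20.3-fold) and Mmp13 (13.1-fold) were the most raised in C1q-positive marrow cells, and Mmp12, the macrophage elastase, was 9.19-fold higher with 19 and 10 counts. Of partner genes led by bone or cartilage-like cells in the clusters, Postn (13.5-fold), Tnc (4.42-fold) and Bmp1 (1.69-fold) were among those also higher there. Agrn, led by the same class, stood at 1.35-fold in erythroid over C1q-positive cells, with an interval (0.877 to 2.17) that spanned equal levels. The bone or cartilage-like cells also led Mmp13, and the part of their transcripts in this gate was not tested. At E13.5, 11 of 38 genes were higher in C1q-positive cells, beside 13.5% of all genes, and 2, Adamts3 and Itga2, in erythroid cells, beside 7.11%.

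The smaller panel shared 5 of the 80, and its values are comparable only among its own 4 sections. Mmp9 stood at 9671 CPM in P8 bone marrow, 1355 in untreated spleen, 907 in PHZ-treated spleen and 133 CPM in E14.5 fetal liver. Itgam had the same order, at 4458, 3829, 3040 and 715 CPM. Itgb1 ranged only from 13430 CPM in E14.5 fetal liver to 14720 CPM in untreated spleen. Itga8 was lower in PHZ-treated than in untreated spleen, 258 against 683 CPM, and Timp4 ranged from 25.7 CPM in E14.5 fetal liver to 87.5 CPM in P8 bone marrow.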

How the data were processed

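Sections were processed for Xenium in situ imaging, and the authors deposited transcript counts per gene and segmented cell, not normalized, with each cell's position. The paper names Space Ranger for the counting, whereas the deposited run descriptions name the instrument's own software, and cells of the 5050-gene panel were outlined with boundary stains. Positions and areas are other deposited values in µm. Cells needed 5 detected genes, and for clustering a gene had to occur in 3 cells. CPM is a gene's summed count over the summed counts of all panel genes. A gene was called at a ratio of at least 2 and at least 20 counts over the cells compared, with exact conditional binomial or Poisson intervals. Clustering used the variable genes without the 80 members, scaled to unit variance, 10 principal components, 30 neighbours and Leiden resolution 0.5 (igraph 0.11.9). The clustering recipe and the naming minima were settled with the data in hand. Classes from a cell's own counts went to the marker list with the most counts, at least 3 and no tie. The erythroid gate summed 6 genes of a fixed list that were on the panel, not all of which are named here. Doublets were not removed. Probe sets differ between genes, so an order of counts is no order of levels between genes. The scripts (Python 3.11.15, scipy 1.17.1) were tested on simulated data. Named genes were, per gene group, the 4 with the most counts in either section, the 3 largest ratios in each direction among genes with at least 100 counts over both sections, and a fixed list of integrins; other genes were named after their values were seen. The members and lists were chosen with earlier results of these data known.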

Additional observations from a re-analysis of the deposited data

How the results depend on the processing

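Of 55 alternatives run for 14 results, 38 kept the result within its counting error or within 1.5 times its count. This compares sizes, not which genes were called. The integrin called higher in erythroid cells at E13.5 changed from Itga2 to Itga5 with clusters in place of the gates. Alternatives in which a class was missing are not among the 55. Shares over all genes were counted only at the main settings and for classes from a cell's own counts. The other counts in this section have no such share beside them and cannot be told from a shift of all genes. Per cell, 51 genes were at least 2-fold higher in E13.5 fetal liver and 13 in the marrow. With the 20 most abundant genes left out of the total, the member share was 1.57% at E13.5 and 1.56% in the marrow, and with cells of at least 20 counts the marrow share was 1.24%. Leiden resolution 0.2 gave 26 genes led by stromal-like cells in the marrow and 37 led by endothelial-like cells at E13.5, where Col1a1, Pdgfra and Kdr led 1 cluster of 1397 cells, and gave no value for the stromal-like class at E13.5 or the endothelial-like class in the marrow. Clustering with the members gave no stromal-like class in the marrow, and neither of these clusterings gave a bone or cartilage-like class there. Classes from a cell's own counts gave 12 stromal-led genes in the marrow and 11 endothelial-led genes at E13.5. For the integrins, at least 10 counts of the erythroid list gave 14 higher in C1q-positive marrow cells and 1 (Itga4) in erythroid cells, and 0 in erythroid cells at E13.5, as did erythroid cells away from C1q-positive cells and a minimum of 100 counts. At least 10 C1q counts made Itga2b, in place of Itga2, the gene called higher in erythroid cells at E13.5, and gave 2 (Itga4 and Itga8) higher in erythroid marrow cells. Clusters in place of the gates, an alternative chosen after seeing the data like the control threshold and the edge bands, gave 4 higher in C1q macrophage-like and 1 (Itga11) in erythroid-like marrow cells. In the marrow, edge bands of 20 and 80 µm gave 13 and 8 genes in place of 11. The cause of these moves was not tested. No paired analysis was possible because each condition had 1 section. Counts limit the E13.5 section most, where 29 of the 80 genes had fewer than 20.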
